A study of Mus musculus with 51 samples.

Results

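The imprinted growth regulators H19, Igf2, Igf2r, Dlk1, Mest, Peg3, Plagl1, Cdkn1c, Grb10 and Zim1 were found by name in the mouse bone data, and all 10 were present among the 23358 entries of each VitC femur library and the 25938 genes of the Tet femur table. Femoral bone was measured by RNA-seq in 7 groups of 3 C57BL/6 mice each, from bone that had been flushed and minced. WT, VitC+ and VitC+/- mice were 20 weeks old, and the last 2 groups were homozygous for Gulotm1Mae, an allele without VitC synthesis. VitC+ mice drank 3.3 g/L VitC to the end, while in VitC+/- mice it was withdrawn at week 15. The 4 Tet groups, Ctrl, cKO of Tet1, cKO of Tet2 and cKO of both (Tet1/2 cKO), were 11 weeks old and all carried Prrx1-Cre, which is active in limb mesenchyme and not in the blood lineage. Ctrl mice had wild type Tet alleles and the others had floxed Tet1, Tet2 or both. Peaks of 5-hydroxymethylcytosine (5hmC, by hMeDIP-seq) were deposited for VitC+, VitC+/-, Ctrl and Tet1/2 cKO femurs. Peaks of 5hmC, H3K27me3 and H3K9me3 were deposited for MC3T3-E1 cells, a line of calvarial pre-osteoblasts, grown in medium that held 50 µg/ml VitC (VitC+) or none (VitC-). The 5hmC samples were taken on day 28, whereas for the histone marks the labels give day 28 and the methods day 7, so the marks may come from different days. Of the 51 samples of the series, 21 gave the RNA values, and 10 pooled peak lists gave the chromatin values.

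Imprinted genes are read mainly from 1 parental copy, as set by DNA methylation that is placed on the maternal or the paternal copy in the germ line and kept through every later division. Many of them set the size of the fetus. Igf2 is a paternally expressed growth factor, Igf2r clears it from the cell surface, and Grb10 and Cdkn1c restrain signalling and the cell cycle. Several are highly expressed in fetal and neonatal tissues and decline together as juvenile growth ends. TET enzymes, which need VitC as a cofactor, oxidise 5-methylcytosine to 5hmC, and the demethylases of H3K9me3 and of H3K27me3 belong to the same class of dioxygenases.

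The Tet libraries held 28.6 to 49.8 M reads (M, mega), as recovered from the normalized counts. The RPKM files state no depth, but WT replicate 1 listed 7883 entries at 0 against 5296 to 6197 in the others. Gulo stood at a scaled RPKM of 0.537, 0.442 and 0 for WT replicates 1 to 3, 0.238, 0.0335 and 0.0268 in VitC+ and 0.0123 to 0.0177 in VitC+/-. The library labelled WT replicate 3 thus lacked the signal of the other WT libraries, while VitC+ replicate 1 stood above its group. All these values are below the RPKM of 1 used as a filter. In Tet Ctrl femurs Gulo had normalized counts of 0, 4.06 and 0. At such low levels Gulo can neither support nor question the label of a library. The mean normalized count of Tet1 was 410 in Ctrl, 645 in Tet1 cKO and 448 in Tet1/2 cKO, and that of Tet2 was 2333 in Ctrl, 2096 in Tet2 cKO and 2391 in Tet1/2 cKO. Only a floxed exon is lost in these mice, so counts over the whole gene do not check the knockout. Summed osteoblast and osteocyte markers were at 1408 scaled RPKM or more in every VitC femur library, and B-cell precursor, neutrophil and muscle markers were present too. All femur values are from whole tissue, in which fewer cells of a type and less RNA per cell cannot be told apart.

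Expression in adult femurs was moderate to very low. On the scaled RPKM scale, which is per length, the median over the 9 VitC femur libraries was 10.9 for Grb10, 6.43 for Igf2r, 4.48 for H19, 4.11 for Igf2, 3.98 for Cdkn1c, 3.67 for Plagl1 and 3.17 for Mest. Peg3 followed at 0.4998, Zim1 at 0.0239 and Dlk1 at 0.0125. Every pair of neighbours in this order overlapped in the range of its libraries. The genes differed widely in how steady they were. Igf2r varied 2.17-fold between its lowest and highest library, whereas Igf2 varied 62.9-fold and H19 395-fold. The last 3 genes, Peg3, Zim1 and Dlk1, did not reach an RPKM of 1 in 3 libraries and were not tested in the VitC femurs, so 7 of 10 were. In the Tet femurs 9 of 10 were tested and Dlk1 was below the minimum.

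**Figure D1:**
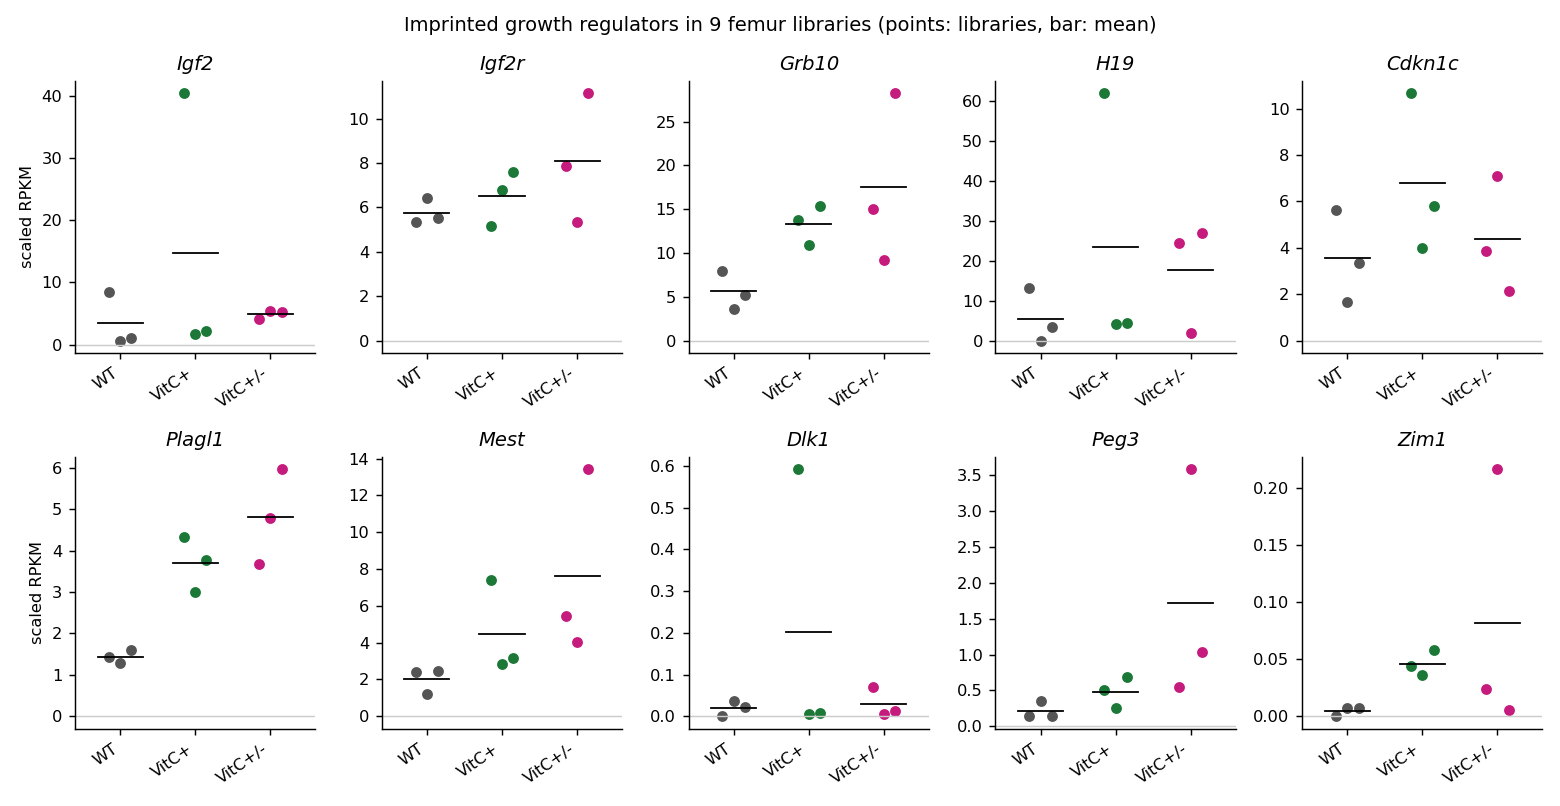
Level of each gene (y axis, scaled RPKM) in the 9 VitC femur libraries (x axis, WT, VitC+ and VitC+/-), each point a library and each bar the mean of 3. Plagl1, Grb10 and Mest lie higher in every VitC+ and VitC+/- library than in every WT library, while H19 and Igf2 are led by VitC+ replicate 1.

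The first comparison asked what withdrawal of VitC does to these genes in Gulo knockout femurs. None of the 7 tested genes passed an adjusted p of 0.05 in VitC+/- against VitC+ (limma with trend, Benjamini-Hochberg), and 0 had an unadjusted p under 0.05. Among all genes tested, 13.4% passed the adjusted and 31.3% the unadjusted threshold. The median log2 fold change of the 7 genes was 0.25 and that of all genes 0.02. Fold changes are on the log2(value + 0.5) scale, which understates changes of low genes. VitC+/- and VitC+ are also each compared with WT below, so the 3 VitC comparisons share libraries.

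Igf2 (chromosome 7, 142650768 to 142661035, mm10) had scaled RPKM of 40.4, 1.74 and 2.17 in VitC+ and 4.11, 5.38 and 5.23 in VitC+/-. A single VitC+ library was high, and the other 2 lay below every VitC+/- library. The log2 fold change was -0.22 with an SE of 1.08 (limma adjusted p = 0.912). Igf2r (chromosome 17, 12682406 to 12769706) was 5.14, 6.77 and 7.59 in VitC+ and 7.84, 5.32 and 11.1 in VitC+/-, with overlapping groups (log2 fold change 0.26, SE 0.25, limma adjusted p = 0.520). Igf2r overlaps its antisense RNA Airn over 28354 bp, and whether strand was used in counting is not given in the sources used here, so reads of the pair cannot be told apart. Over shorter stretches Igf2 overlaps Igf2os, and Mest overlaps Copg2.

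Grb10 (chromosome 11, 11930499 to 12037420), an adaptor that dampens insulin and IGF1 receptor signalling, was 13.8, 10.9 and 15.4 in VitC+ and 15.1, 9.22 and 28.2 in VitC+/-. The groups overlapped and the change was 0.25 on the log2 scale with an SE of 0.38. H19 (chromosome 7, 142575532 to 142578146), the maternally expressed non-coding RNA next to Igf2, was 61.9, 4.17 and 4.48 in VitC+ and 24.5, 1.94 and 27.2 in VitC+/-. Each group held libraries that were both high and low. The log2 fold change of H19 was 0.07 with an SE of 1.38 (limma adjusted p = 0.978). Without the library labelled VitC+ replicate 1, the log2 fold change of H19 was 1.30 (limma adjusted p = 0.590) and that of Igf2 1.14 (limma adjusted p = 0.379). miRNA genes hosted by members were at 0 in all 9 libraries for Mir675 and Mir483, and Mir335 reached 0.773 at most.

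Cdkn1c (chromosome 7, 143458339 to 143461050), the CDK inhibitor p57, was the gene with the lowest fold change in VitC+/- against VitC+, at -0.62 on the log2 scale with an SE of 0.49 (limma adjusted p = 0.430). Its levels were 10.7, 3.98 and 5.81 in VitC+ and 3.87, 7.12 and 2.14 in VitC+/-, which overlap. Plagl1 (chromosome 10, 13090788 to 13131695), a zinc finger transcription factor also called Zac1, was 4.33, 3.01 and 3.77 in VitC+ and 3.67, 4.78 and 5.97 in VitC+/- (log2 fold change 0.33, SE 0.21). Mest (chromosome 6, 30733506 to 30748466), a hydrolase-fold protein of the endoplasmic reticulum, was 7.39, 2.84 and 3.17 in VitC+ and 5.43, 4.03 and 13.4 in VitC+/- (log2 fold change 0.65, SE 0.46). Both genes had overlapping groups.

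Dlk1, Peg3 and Zim1 stayed near the lower end. Dlk1 (chromosome 12, 109452823 to 109463336), a transmembrane inhibitor of adipocyte differentiation, was at most 0.0694 in 8 of 9 libraries and 0.592 in VitC+ replicate 1. Peg3 (chromosome 7, 6705960 to 6730419), a large zinc finger protein, was 0.143, 0.360 and 0.141 in WT, 0.4998, 0.259 and 0.683 in VitC+ and 0.551, 3.59 and 1.03 in VitC+/-. VitC+/- replicate 2 was the highest, and all VitC+/- libraries were above all WT libraries. Groups of 42.7% of all genes tested did not overlap in that comparison. Its neighbour Zim1 (chromosome 7, 6675443 to 6696432) was at 0 to 0.0577 in 8 of 9 libraries and at 0.217 in VitC+/- replicate 2. That library also had the highest adipocyte marker sum, 3199 against 114 to 428 in the others, and the part of this in the Peg3 and Zim1 values was not tested.

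In VitC+/- against WT, 3 of 7 tested genes passed the threshold, all higher, against 31.3% of all genes tested in either direction and 15.3% in this direction. Plagl1 had scaled RPKM of 1.44, 1.28 and 1.59 in WT and 4.81 ± 1.15 in VitC+/- (mean ± SD, n = 3). Its log2 fold change was 1.43 with an SE of 0.21 (limma adjusted p = 0.00179). The lowest VitC+/- library stood above the highest WT library.

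Grb10 was 7.91, 3.65 and 5.25 in WT, 5.60 ± 2.15 in the mean, and 17.5 ± 9.74 in VitC+/- (SD, n = 3). The log2 fold change was 1.48 with an SE of 0.38 (limma adjusted p = 0.0174). Mest was 2.38, 1.19 and 2.45 in WT and 7.63 ± 5.07 in VitC+/- (SD, n = 3). Its log2 fold change was 1.57, SE 0.46 (limma adjusted p = 0.0296). The groups of these 3 genes do not overlap, as for 42.7% of all genes tested. The other 4 tested genes had positive log2 fold changes that missed the threshold, from 0.26 for Cdkn1c to 1.85 for H19, so that 7 of 7 were higher in the mean log2 level, against 50.7% of all genes, and the median of the 7 was 1.43 against 0.01 for all genes.

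Several cell type markers moved with these 3 genes. The summed scaled RPKM of 10 neutrophil markers, among them Elane and Mpo, was 53324 to 75740 in WT and 7330 to 24592 in VitC+/-, and all 10 were lower at the threshold. Of 9 tested adipocyte markers 7 were higher, with a sum of 114 to 203 in WT and 383 to 3199 in VitC+/-. Of 10 endothelial markers 6 were higher, with sums of 92.0 to 137 in WT and 177 to 194 in VitC+/-. Of 10 B-cell precursor markers 9 were lower, with sums of 53.1 to 177 in WT and 14.4 to 27.2 in VitC+/-, and of 6 erythroid markers 2 were higher, with sums of 148 to 218 and 276 to 384. Osteoblast and osteocyte sums were 1408 to 4566 in WT, 7064 to 12322 in VitC+ and 2987 to 8623 in VitC+/-. Of 9 tested fibroblast and periosteum markers 2 were higher, with sums of 105 to 376 in WT and 176 to 1479 in VitC+/-. The sum of 1479 was from VitC+/- replicate 3, which also had the highest Grb10 and Mest values. Of 8 stromal niche markers 2 were higher, and of 10 proliferation markers 2 were lower. Among all genes 15.3% were higher and 15.9% lower. No marker of these lists was at 0 in every library. The part of fibroblasts and periosteum in the 3 genes was not tested.

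With the neutrophil level as a covariate, an alternative chosen after seeing the data, 0 of 7 genes and 147 genes in all passed. The log2 fold change of Plagl1 was then 0.91 (limma adjusted p = 0.238), and those of Grb10 and Mest changed sign to -0.44 and -0.57. The neutrophil sums of WT and VitC+/- do not overlap. Over all 18 alternatives, Plagl1 passed in 17 (adjusted p 0.00157 to 0.238), Grb10 in 15 (0.00486 to 0.506) and Mest in 11 (0.0136 to 0.597). Without the library labelled WT replicate 2 or replicate 3, only Plagl1 passed, and without WT replicate 1 all 3 did.

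These 3 genes lay above WT also in VitC+ mice, from which VitC was not withdrawn. In VitC+ against WT 0 of 7 passed, as 0% of all genes did, and Plagl1 and Grb10 had an unadjusted p under 0.05, as did 22% of all genes. Plagl1 was 3.70 ± 0.666 in VitC+ (SD, n = 3, log2 fold change 1.11, SE 0.21, limma adjusted p = 0.0762). Grb10 was 13.3 ± 2.26 (log2 fold change 1.23, SE 0.38, limma adjusted p = 0.128), and Mest 4.47 ± 2.54 (log2 fold change 0.92, SE 0.46, limma adjusted p = 0.274). All 3, and the untested Zim1, had groups that do not overlap, as had 28.7% of all genes. In this comparison the 14 osteoblast and osteocyte markers were all higher in the mean log2 level, beside 45.3% of all genes. So were all tested chondrocyte (5), adipocyte (9), fibroblast and periosteum (9), stromal niche (8) and endothelial (10) markers. All 10 neutrophil and all 10 proliferation markers were lower. B-cell precursor (8 of 10 higher), erythroid (5 of 6) and skeletal muscle markers (2 of 9) went both ways. The part of these cell types in the 3 genes was not tested. Without WT replicate 1, Plagl1 passed (adjusted p = 0.0431).

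**Figure D2:**
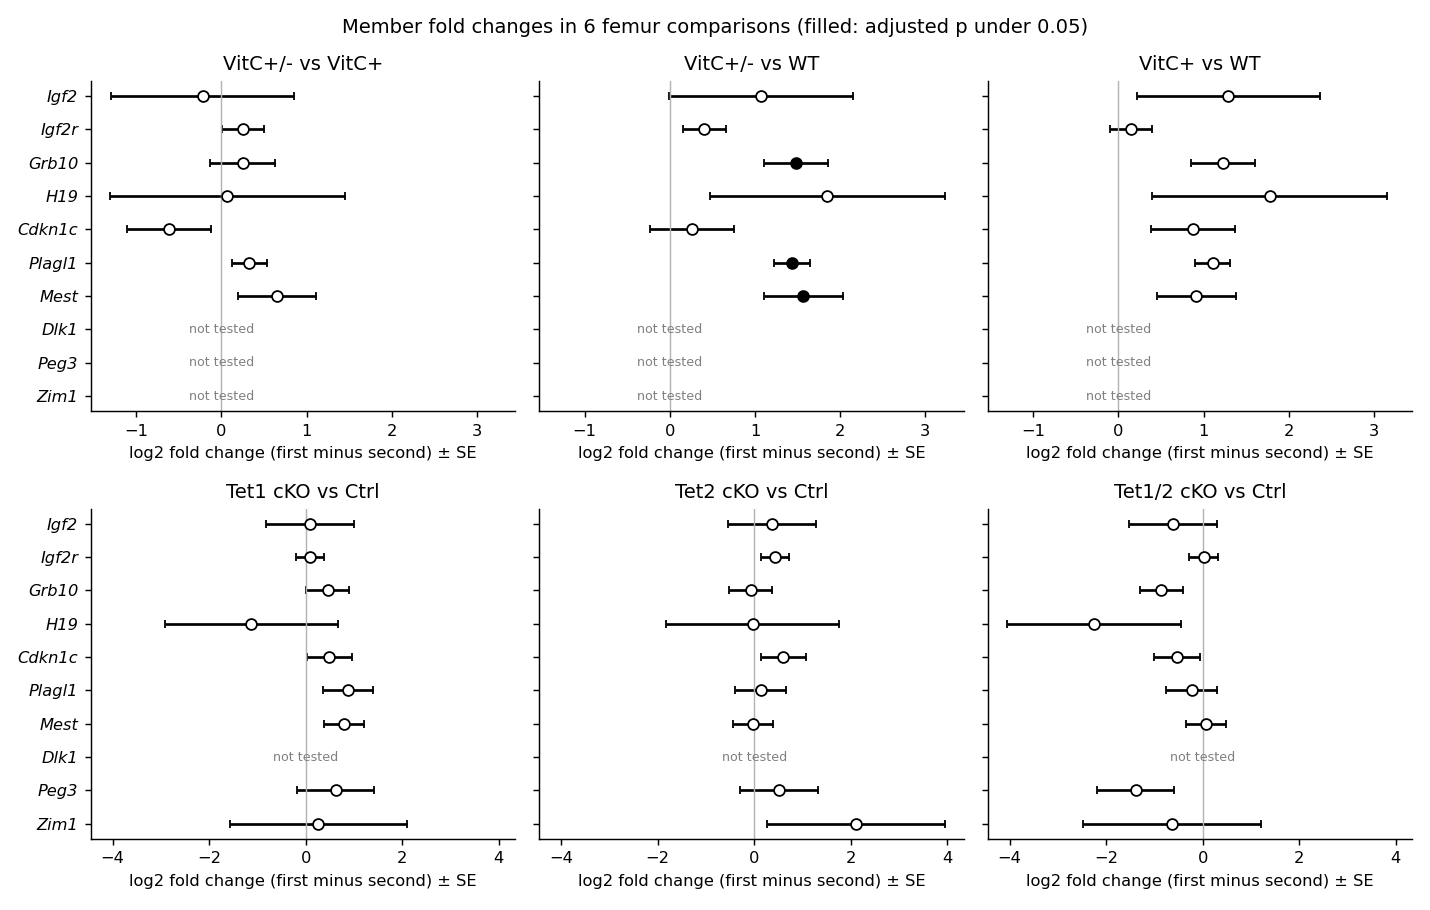
Log2 fold change with its SE (x axis, first group minus second) of each gene (y axis) in the 6 femur comparisons, with filled points for an adjusted p under 0.05. Plagl1, Grb10 and Mest are filled in VitC+/- against WT at 1.43, 1.48 and 1.57, and no other point is filled.

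The next comparison asked whether loss of Tet1, Tet2 or both in limb mesenchyme changes these genes. In each of the 3 comparisons with Ctrl, which share the Ctrl libraries, 0 of 9 tested genes passed the threshold by limma, and 0 had an unadjusted p under 0.05. Of all genes tested, 0.0119% passed in Tet1 cKO, 0.0119% in Tet2 cKO and 0% in Tet1/2 cKO, and 2.28%, 2.19% and 5.05% had an unadjusted p under 0.05. edgeR and DESeq2 on recovered reads, which leave out Tet1 cKO replicate 3, called none of the 9 either. Normalized counts are not per length and are compared only within a gene.

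H19 had normalized counts of 416, 4296 and 1988 in Ctrl, 7026, 191 and 255 in Tet1 cKO, 8009, 3293 and 125 in Tet2 cKO and 131, 115 and 2149 in Tet1/2 cKO. Every group held both high and low libraries and overlapped Ctrl. The log2 fold change of Tet1/2 cKO was -2.25 with an SE of 1.80 (limma adjusted p = 0.730). Igf2 was 237, 420 and 444 in Ctrl, 1392, 224 and 173 in Tet1 cKO, 1827, 182 and 289 in Tet2 cKO and 179, 151 and 459 in Tet1/2 cKO. The libraries with the 2 highest H19 values were also the highest for Igf2.

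H19 varied with skeletal muscle markers across the Tet libraries. The summed normalized count of 10 muscle markers, among them Ckm and Myh4, ran from 3209 to 1514393. Across the 12 libraries Pearson's r of log2 H19 with these markers was 0.96 (Spearman's rho 0.94), given as a description, since the libraries also share depth and groups. The 5 libraries with the lowest sums, 3209 to 22287, were the 5 with the lowest H19, 115 to 255. With the muscle level as a covariate, also chosen after seeing the data, the log2 fold change of H19 was 0.29 in Tet1/2 cKO and 0.49 in Tet1 cKO, compared with -2.25 and -1.12 without it, with the sign turned. The SE fell from 1.80 to 0.57 in Tet1/2 cKO. Replicate 1 of Tet1 cKO and of Tet2 cKO, highest for H19 and Igf2, also had the highest fibroblast and periosteum sums. These were 453127 and 312162, against 54959 to 237163 in the others. Tet2 cKO replicate 2, with H19 at 3293, had a sum of 87453. The part of muscle or of fibroblasts and periosteum in H19 and Igf2 was not tested.

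The r with the muscle markers was 0.71 for Igf2, 0.60 for Zim1, 0.52 for Cdkn1c and 0.51 for Peg3, and between -0.08 and 0.40 for the other 5. In the 9 VitC femur libraries, where the muscle sum ran from 6.58 to 1373 scaled RPKM, it was 0.08 for H19 and -0.22 for Igf2. The strong relation in the Tet femurs was thus not seen in the VitC femurs. VitC+ replicate 2, which had the highest muscle sum of the 9, had an H19 level of 4.17.

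**Figure D3:**
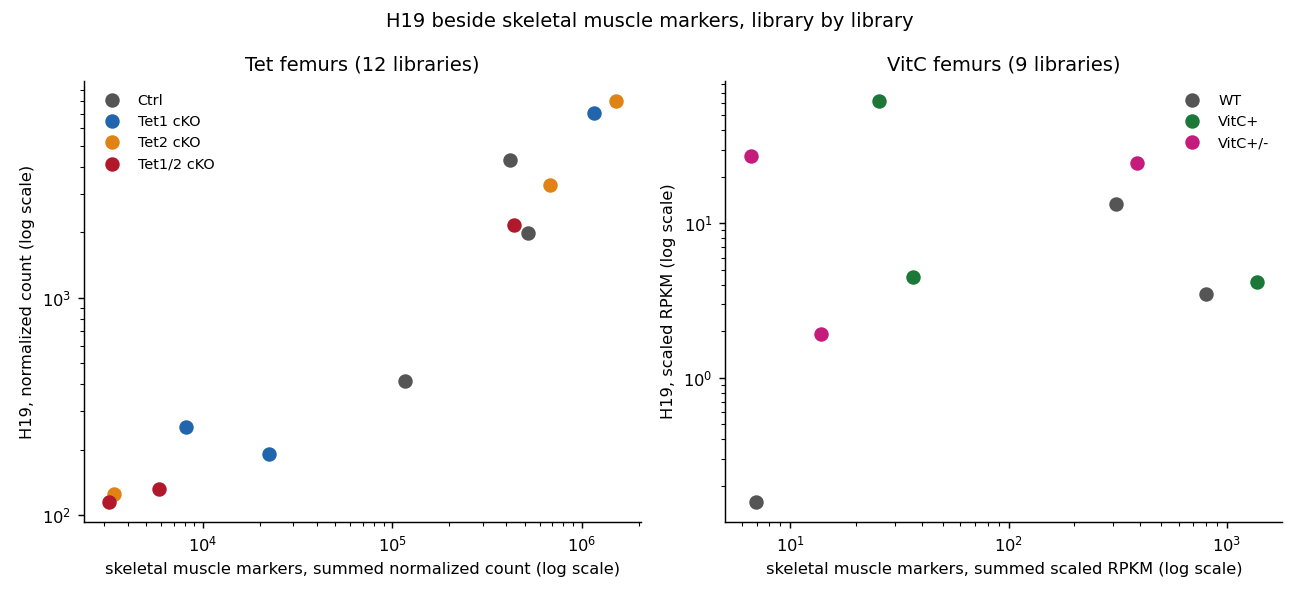
H19 level (y axis, log scale) against the summed skeletal muscle markers (x axis, log scale) for the 12 Tet femur libraries in normalized counts and the 9 VitC femur libraries in scaled RPKM, colored by group. The Tet points rise together with r = 0.96, and the VitC points show r = 0.08.

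Peg3 was the gene with non-overlapping groups in the double knockout. It was 270, 437 and 337 in Ctrl and 53.4, 157 and 260 in Tet1/2 cKO, a log2 fold change of -1.39 with an SE of 0.80 (limma adjusted p = 0.723). Groups of 17.4% of all genes tested did not overlap in this comparison. In Tet1 cKO and Tet2 cKO, Peg3 ran from 170 to 1282 and overlapped Ctrl. With the muscle covariate its value in Tet1/2 cKO was -0.81. Summed osteoblast and osteocyte markers were 1083020 to 1380689 in Ctrl and 347272 to 753060 in Tet1/2 cKO. Of these 14 markers, 12 were lower in the mean log2 level, beside 50.8% of all genes. So were all 9 tested chondrocyte and 9 of 10 fibroblast and periosteum markers. All 10 neutrophil and all 10 proliferation markers were higher, beside 49.2%. None of these passed the threshold. The part of these cell types in Peg3, Grb10 and Cdkn1c was not tested.

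The growth restraining genes did not pass the threshold against Ctrl. Grb10 was 1789, 4065 and 2733 in Ctrl and 961, 1636 and 2103 in Tet1/2 cKO (log2 fold change -0.86, SE 0.45, limma adjusted p = 0.723). Cdkn1c was 161, 320 and 275 in Ctrl and 186, 146 and 171 in Tet1/2 cKO (log2 fold change -0.53, SE 0.47). Igf2r was the steadiest gene again, at 2675 ± 421 in Ctrl and 2717 ± 459 in Tet1/2 cKO (SD, n = 3), a log2 fold change of 0.02 with an SE of 0.29.

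Plagl1 and Mest, which passed in VitC+/- against WT, were at 749 ± 217 and 408 ± 193 in Ctrl (SD, n = 3). In Tet1 cKO they reached 1427 ± 596 and 683 ± 240, with log2 fold changes of 0.88 and 0.79 and SEs of 0.52 and 0.41, both with a limma adjusted p of 1.00. In Tet1/2 cKO they were at 621 ± 55.7 and 401 ± 109. Zim1 ran from 0 to 151 and Dlk1 from 0 to 19.6 over the 12 libraries. Zim1 had SEs of 1.84 in all 3 comparisons, so its changes of -0.63 to 2.11 are not resolved.

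**Figure D4:**
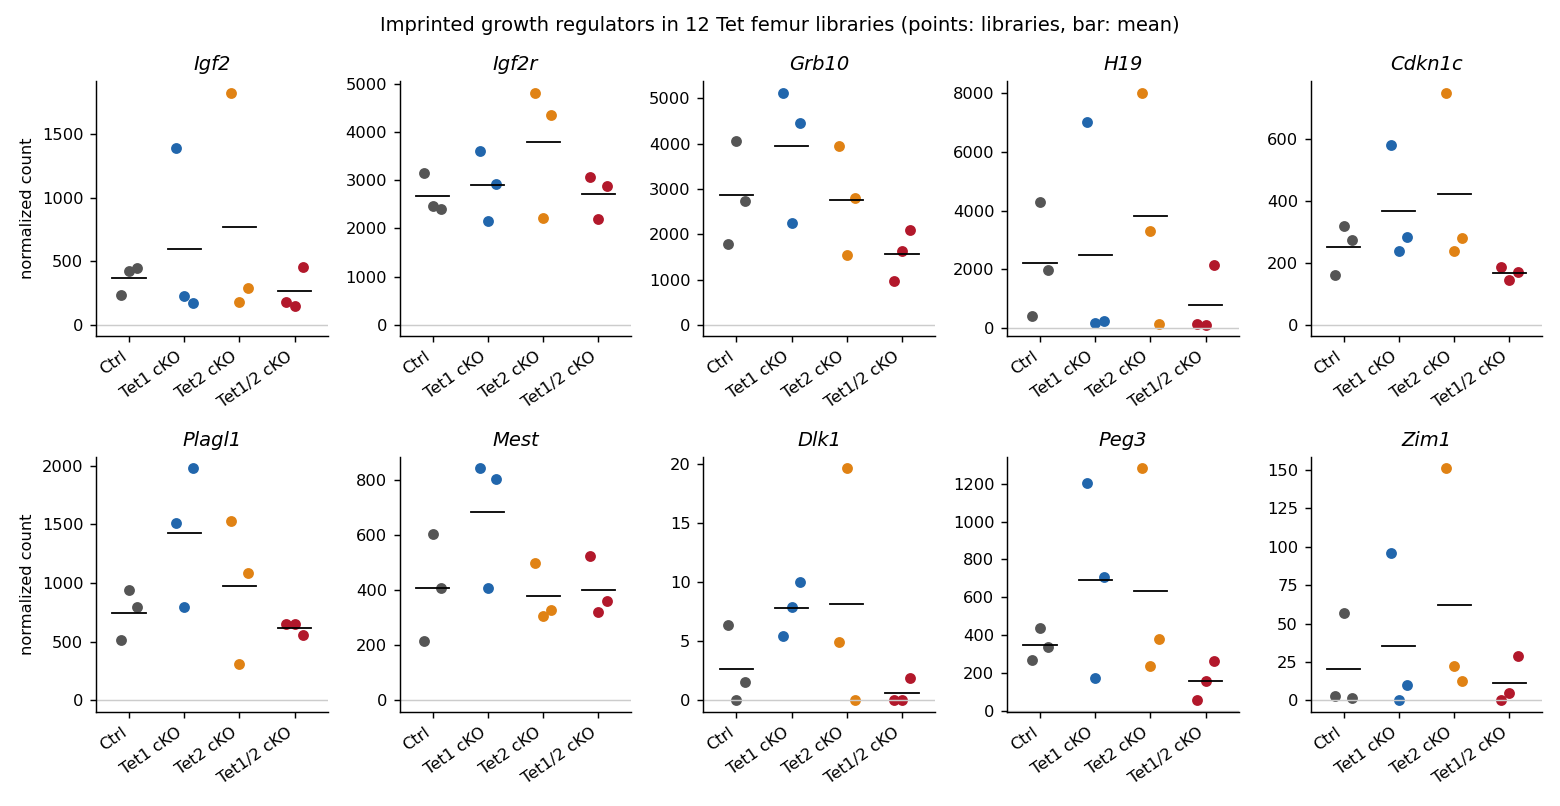
Level of each gene (y axis, normalized count) in the 12 Tet femur libraries (x axis, the 4 groups), each point a library and each bar the mean of 3. In H19 and Igf2 replicate 1 of Tet1 cKO and of Tet2 cKO stand above the rest, and in Peg3 the Tet1/2 cKO points lie below the Ctrl points.

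Of 51 other imprinted genes listed, 24 were tested, and 2 were lower and 2 higher in VitC+/- against VitC+, beside 7.52% lower and 5.93% higher among all genes tested (13.4% in either direction). Calcr, the calcitonin receptor of osteoclasts, rose from 0.552 ± 0.124 to 2.78 ± 0.468 scaled RPKM (SD, n = 3, log2 fold change 1.64, limma adjusted p = 0.00371). Rian, a maternally expressed non-coding RNA of the Dlk1 domain, fell from 1.25 ± 0.217 to 0.239 ± 0.172 (log2 fold change -1.27, limma adjusted p = 0.0317). Peg12, a regulator of GSK3, rose by 0.94 and Commd1 fell by 0.80 on the log2 scale (limma adjusted p = 0.0229 and 0.0125).

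Against WT 2 of these 24 were lower and 6 higher, beside 15.9% lower and 15.3% higher among all genes (31.3% in either direction), a share near the background. Calcr (2.11) and Rian (-1.27) had the largest changes on the log2 scale, followed by Peg12 (1.24) and Airn (1.05). The median over the 24 genes was -0.02 against VitC+ and 0.04 against WT, beside 0.02 and 0.01 for all genes. Over the alternatives, Calcr against VitC+ passed in 15 of 15, Peg12 in 12 of 15, Rian in 13 of 18 and Commd1 in 16 of 18. In VitC+ against WT 0 genes of this list and of the 2 lists that follow passed by limma, as 0% of all genes did. At an unadjusted p under 0.05 were 4 of 24, 3 of 12 and 4 of 9 tested, beside 22% of all genes. In the Tet comparisons 0 of 40 tested genes of this list passed by limma. In Tet1 cKO, Tet2 cKO and Tet1/2 cKO 1, 0 and 3 had an unadjusted p under 0.05, beside 2.28%, 2.19% and 5.05% of all genes.

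Of 12 tested genes of the IGF pathway, which handle IGF outside and inside the cell, 3 were higher and 0 lower in VitC+/- against VitC+, beside 5.93% higher and 7.52% lower among all genes. Igfbp3, a secreted IGF carrier, was 34.0, 19.6 and 16.7 in VitC+ and 66.0, 53.8 and 50.4 in VitC+/- (log2 fold change 1.31, SE 0.33, limma adjusted p = 0.0331). All VitC+/- libraries of Igfbp3 stood above all VitC+ libraries, and groups did not overlap for 40.5% of all genes tested. Pappa, a protease that frees IGF from Igfbp4, rose by 1.13 and Irs2, a docking protein of the receptor, by 1.76 on the log2 scale (limma adjusted p = 0.0439 and 0.0482). Irs2 was led by VitC+/- replicate 2 at 11.4 scaled RPKM against 2.46 and 2.88 in the other 2 and passed in 7 of 18 alternatives. Igfbp3 passed in 10 of 18 and Pappa in 8 of 18. In the same comparison 9 of 10 B-cell precursor markers were lower, with summed scaled RPKM of 82.7 to 163 in VitC+ and 14.4 to 27.2 in VitC+/-. Of 14 osteoblast and osteocyte markers 6 were lower and 1 higher, 2 of 10 neutrophil markers were lower and 2 of 6 erythroid markers higher. The part of these cell types in the IGF pathway values was not tested.

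Against WT 6 of the 12 were higher and 0 lower, beside 15.3% and 15.9% of all genes, led by Igfbp3 (2.37), Irs1 (1.66), Pappa (1.54) and Igfbp7 (1.42) on the log2 scale. Here the median of the list was 1.08. The neutrophil markers described above moved with this comparison as well. With the neutrophil covariate the log2 fold change of Igfbp3 was 1.77 (limma adjusted p = 0.201). In the Tet comparisons 0 of 16 tested passed by limma, with 0 at an unadjusted p under 0.05.

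Among factors that keep or remove imprints, Tet2 was higher in VitC+/- than in VitC+, at 8.07 ± 1.27 against 3.85 ± 0.778 scaled RPKM (SD, n = 3, log2 fold change 0.98, limma adjusted p = 0.0153), and it was the only one of 9 tested to pass, beside 13.4% of all genes. Against WT its log2 fold change was 0.63 (limma adjusted p = 0.0381), past the threshold in 8 of 18 alternatives. In the Tet femurs Tdg, the glycosylase that removes oxidised methylcytosine, was 809 ± 44.2 in Ctrl, 171 ± 29.8 in Tet1 cKO and 184 ± 34.8 in Tet2 cKO, but 806 ± 114 in Tet1/2 cKO (SD, n = 3). The log2 fold changes were -2.25 and -2.15 (limma adjusted p = 0.00858 and 0.00762). They passed in 14 and 15 of 21 alternatives. Tdg has near-identical pseudogene copies that can share its reads, so this value is uncertain.

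Genes outside the list were picked by the highest r with Igf2 and with H19 among all tested genes over the 9 VitC femur libraries. A high r in these libraries thus follows from the choice and is given as a description. The highest Pearson's r of log2 values with Igf2 was 0.97 for Fam161b, 0.96 for Ddit3 and 0.94 for Bcas3, and in the 12 Tet libraries the same genes had r of 0.16, -0.02 and 0.09. For H19 it was 0.98 for Them4 and 0.98 for Nek3, compared with 0.85 and 0.08 in the Tet libraries. H19 and Igf2 had an r of 0.80 with each other over the 9 libraries, which share VitC+ replicate 1 as the highest for both, and H19 and Mest had an r of 0.79.

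Peaks were taken from 30 kb before to 30 kb after each gene body, each counted whole where its midpoint lay in this window. Each list pools the replicates of a group, so the values below have no replicate error and no test, and covered length moves with how much was called in a list as a whole. In femurs, the length covered by called 5hmC peaks was similar in VitC+ and VitC+/- at most of these genes. The lists as a whole also covered similar lengths, 175.47 Mb in VitC+ and 174.98 Mb in VitC+/-. The paper reports, by other measures, that bone lost hydroxymethylcytosine when VitC was withdrawn. Covered length does not show that loss, so it cannot tell whether the level of 5hmC at these genes was alike. Covered length differed by 2-fold or more at 1 of 10 genes, as at 3.77% of all 22229 genes, and the median log2 ratio was -0.05 for the 10 and -0.11 for all genes.

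Grb10 had the most 5hmC peaks, 52 in each list covering 27291 bp in VitC+ and 25306 bp in VitC+/-. Igf2r had 41 peaks and 16503 bp in VitC+ and 30 peaks and 12126 bp in VitC+/-, and Plagl1 32 peaks in each. H19 had none in either. Zim1 was the gene past 2-fold, with 1 peak of 238 bp in VitC+ and 6 peaks covering 2239 bp in VitC+/-, and its window shares peaks with that of Peg3, which went from 6 peaks to 11. The fold enrichment of these peaks was at most 5.07, near the low end of the 10 genes, where the highest peak of Igf2 reached 22.5.

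Called 5hmC was lower across the genome in Tet1/2 cKO femurs, at 123 Mb against 273 Mb in Ctrl, and at these loci too. Covered length was lower by 2-fold or more at 3 of 10 genes and at 53.7% of all genes. The median log2 ratio was -0.87 for the 10 and -1.05 for all. Plagl1 went from 25 peaks over 18399 bp in Ctrl to 5 peaks over 2000 bp (log2 ratio -2.69), Mest from 14 peaks to 4 (-1.88) and H19 from 11 to 3 (-1.15). Igf2r had 48 peaks over 85097 bp in Ctrl and 47 over 49008 bp in Tet1/2 cKO (-0.78).

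**Figure D5:**
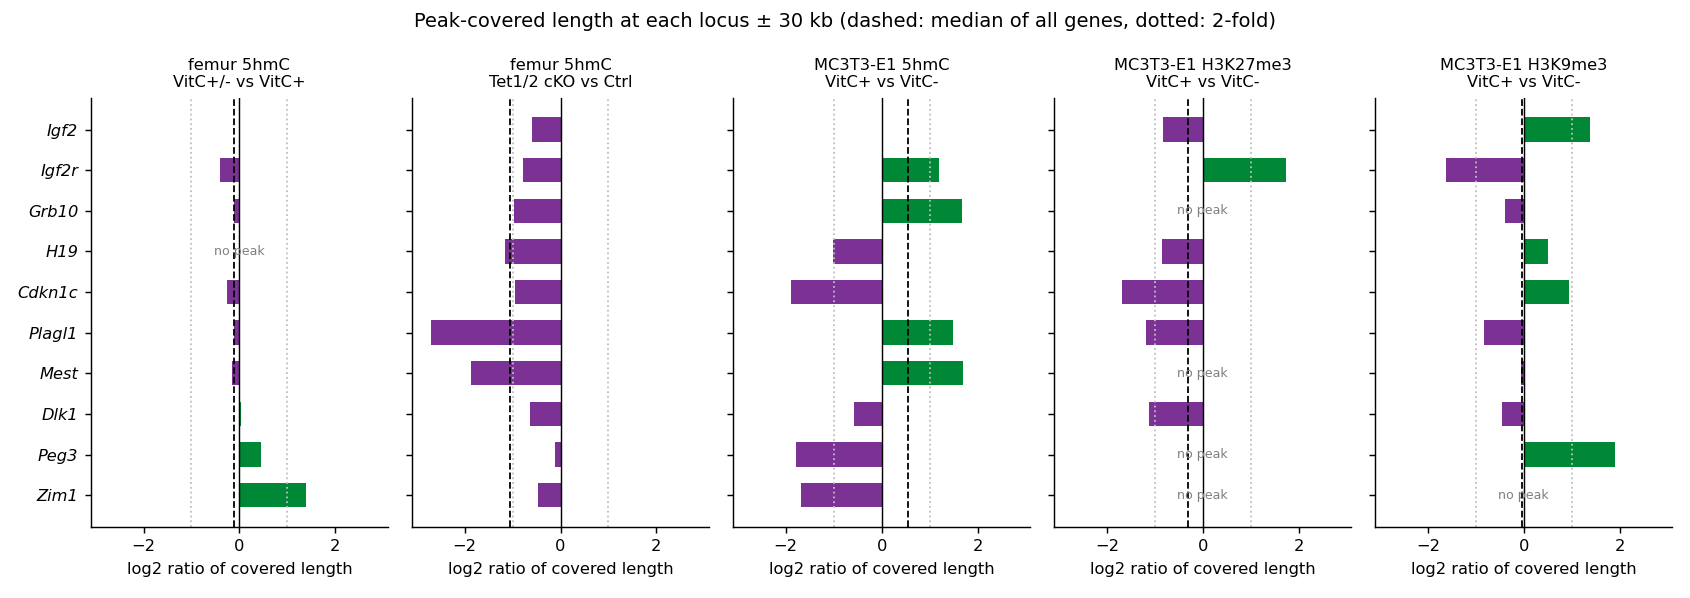
Log2 ratio of peak-covered length (x axis, first group over second, 1000 bp added to each) at each gene (y axis) in the 5 pairs of pooled peak lists, with dashed lines for the median of all genes and dotted lines for 2-fold. Bars are short in VitC femurs except Zim1, all negative in Tet1/2 cKO and of both signs in MC3T3-E1 5hmC.

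In MC3T3-E1 cells the 5hmC of these genes moved both ways with VitC. Covered length was past 2-fold at 8 of 10 genes, as at 57.3% of all genes. Against 34.1% of all genes, 4 of 10 were higher with VitC, namely Grb10 (33 to 67 peaks, log2 ratio 1.67), Mest (9 to 22, 1.70), Plagl1 (12 to 28, 1.49) and Igf2r (44 to 48, 1.20). Against 23.2%, 4 were lower, namely H19 (3 to 1, -1.01) and 3 others. No peak was called with VitC at Cdkn1c, Peg3 and Zim1, which had 5, 6 and 6 without it. The windows of Peg3 and Zim1 overlap and share their most enriched peak (chr7:6700691-6701092), so these 2 genes are not separate counts. Over all genes the median was 0.54.

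H3K27me3, the Polycomb mark, was present near 6 of 10 genes and absent from the lists near Mest, Peg3, Grb10 and Zim1. The most enriched peak at each gene had a −log10 q of 2.81 to 3.46 without VitC. With VitC it was 2.12 to 2.42, so those are weak peaks. Covered length was lower by 2-fold or more with VitC at 3 genes, Cdkn1c (74355 to 22366 bp, log2 ratio -1.69), Plagl1 (41121 to 17635 bp, -1.18) and Dlk1 (35181 to 15742 bp, -1.11), against 22.0% of all genes. It was higher at Igf2r (6828 to 25216 bp, 1.74), against 1.53% of all genes. The call at Igf2r rests on the window, since within 10 kb of the gene body its log2 ratio was -2.21, and that of Cdkn1c was 1.49. When peaks were clipped to the window, 0 of 10 were past 2-fold. Near H19, 2 long peaks covered 67463 bp without VitC and 15 shorter ones covered 37164 bp with it.

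H3K9me3 lay on the starts of several of these genes. With VitC, a transcript start of 4 of 10 genes (Mest, Igf2, Peg3 and Grb10) was within a peak, compared with 1.75% of 19934 genes, and without VitC that of 2 (Mest and Grb10), compared with 2.01%. Starts were taken from GENCODE M21, with 250 bp before and 50 bp after. At Mest, 1 peak of fold enrichment 5.62 lay on the starts at 30733506 and 30738050 with VitC (chr6:30732783-30740324) and 1 of 4.85 without it (chr6:30732886-30740778). At Grb10, a peak lay on the internal start at 12027971 in both lists (fold enrichment 4.67 with VitC and 3.01 without), where the femur lists also had a 5hmC peak. Peg3 had a peak at its start in the list with VitC (chr7:6727722-6730450, fold enrichment 3.38) and none in the other, and so had Igf2 (chr7:142659466-142660607, 3.42). The Igf2 peak lay on the GENCODE start at 142659489 and overlapped none of the RefSeq promoters of Igf2. With VitC the −log10 q was 11.0 at Mest and 5.93 at the internal start of Grb10, but 2.55 at Igf2 and 2.23 at Peg3, which are weak peaks. The histone lists reach down to a −log10 q of 1.01, and the threshold behind them is not clear from the sources used here.

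By covered length, H3K9me3 was past 2-fold at 3 of 10 genes and at 19.1% of all genes. It was higher with VitC at Peg3 (log2 ratio 1.90) and Igf2 (1.39), both without a peak in the other list, and lower at Igf2r (14120 to 3889 bp, -1.63). Plagl1 had 2 short peaks without VitC only. For H3K27me3, starts of H19, Igf2 and Dlk1 were within peaks without VitC, 3 of 10 against 15.9% of all genes, and 0 of 10 with VitC against 10.0%. For 5hmC the start of 1 of 10 (Grb10) was in a peak in VitC+ and in VitC+/- femurs, compared with 6.53% and 5.50% of all genes. In MC3T3-E1 cells 3 of 10 were with VitC (Mest, Grb10 and Igf2r), compared with 15.5%, and 0 without it, compared with 6.85%. The starts of 2 of 10 (Mest and Grb10) were in peaks in Ctrl and in Tet1/2 cKO femurs, compared with 14.8% and 8.14% of all genes.

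The Mest and Peg3 promoters are shown because both overlap these H3K9me3 peaks and both are differentially methylated between the parental copies. Each is a 300 base window of GRCm38 (mm10) from RefSeq in the direction of transcription, chr6:30737800-30738099 on the plus strand and chr7:6730370-6730669 on the minus strand, and capitals mark CG, the dinucleotide that carries the methylation.
Mest promoter: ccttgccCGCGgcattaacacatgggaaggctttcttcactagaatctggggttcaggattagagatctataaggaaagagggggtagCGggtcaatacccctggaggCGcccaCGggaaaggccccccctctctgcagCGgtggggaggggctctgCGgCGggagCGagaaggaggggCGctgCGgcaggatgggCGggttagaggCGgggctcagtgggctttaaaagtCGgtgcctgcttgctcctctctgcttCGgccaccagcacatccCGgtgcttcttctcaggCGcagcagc
Peg3 promoter: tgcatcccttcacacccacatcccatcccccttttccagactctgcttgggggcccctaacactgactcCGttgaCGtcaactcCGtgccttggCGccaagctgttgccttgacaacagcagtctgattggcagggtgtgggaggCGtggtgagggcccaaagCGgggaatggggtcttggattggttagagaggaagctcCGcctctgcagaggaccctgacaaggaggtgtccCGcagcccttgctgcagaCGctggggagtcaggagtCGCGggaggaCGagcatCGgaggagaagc
They hold 17 and 13 CG against a median of 7 over 32851 promoters of the same length. The hexamer TGCCGC, searched on both strands as the letters that Zfp57 binds when methylated, was found 2 times in the Mest window and 0 times in that of Peg3. One or more lay in 11.6% of all promoters, and 2 or more in 1.53%. Of the 10 genes 8 had promoters in the table, 14 in all and some overlapping, and 6 of the 14 held the hexamer. The match describes letters and not binding.

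The domain of H19 and Igf2 is turned by the imprinting control region between them (chr7:142580248-142582833 in RefSeq), where CTCF binds 4 sites on the unmethylated maternal copy and keeps the enhancers beyond H19 from Igf2. The 4 sites are shown because histone peaks divided them. Each is printed on the minus strand, 5′ to 3′, with capitals for the CTCF core of 14 letters, which the sites share apart from a few positions. The core was found on either strand in 0.122% of all promoters, and in m1, m2 and m4 it overlaps the hexamer.
CTCF m1 (chr7:142582026-142582073): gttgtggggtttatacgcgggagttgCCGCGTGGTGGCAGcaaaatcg
CTCF m2 (chr7:142581782-142581826): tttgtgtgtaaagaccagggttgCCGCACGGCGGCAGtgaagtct
CTCF m3 (chr7:142580756-142580803): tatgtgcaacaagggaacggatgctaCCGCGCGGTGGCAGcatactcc
CTCF m4 (chr7:142580301-142580347): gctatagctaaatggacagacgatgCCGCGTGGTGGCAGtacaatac
In MC3T3-E1 cells with VitC, an H3K9me3 peak (chr7:142580532-142580955, fold enrichment 3.05) covered m3, and without VitC no H3K9me3 peak lay within 30 kb of H19. The −log10 q of the peak on m3 was 1.58, near the lowest of its list (1.01), so it is a weak peak. Without VitC, an H3K27me3 domain of 41340 bp (chr7:142581445-142622784) covered m2 and m1. With VitC, a peak of 2561 bp (chr7:142582178-142584738) began beyond m1 and covered none of the 4. No 5hmC peak of any list overlapped the control region.

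Between the H19 start and the control region, 5hmC peaks lay at chr7:142578579-142580240 in Ctrl femurs (fold enrichment 5.77) and at chr7:142578780-142580162 in Tet1/2 cKO femurs (6.44). This stretch had a peak in both lists, while the number near H19 was 11 in Ctrl and 3 in Tet1/2 cKO. Downstream, the enhancer region of the domain (chr7:142547916-142573912) held 4 of the Ctrl peaks and 1 of those of Tet1/2 cKO.

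At the far end of that region lies the conserved segment CS9, annotated by RefSeq as an enhancer (chr7:142550891-142551376) and known for its activity in skeletal muscle. A 5hmC peak covered most of it in Ctrl femurs (chr7:142550953-142551288, fold enrichment 2.57) and in MC3T3-E1 cells with VitC (chr7:142550930-142551363, 5.05). No peak lay there in Tet1/2 cKO, in VitC+ or VitC+/- femurs or in MC3T3-E1 cells without VitC. The Ctrl libraries had muscle marker sums of 117151 to 519841 and the Tet1/2 cKO libraries 3209 to 438360 in the RNA, and the part of muscle tissue in this peak was not tested. The first 300 bases of the Ctrl peak (chr7:142550953-142551252, plus strand, 9 CG in capitals) are shown as the segment that carried 5hmC in both.
CS9 enhancer stretch: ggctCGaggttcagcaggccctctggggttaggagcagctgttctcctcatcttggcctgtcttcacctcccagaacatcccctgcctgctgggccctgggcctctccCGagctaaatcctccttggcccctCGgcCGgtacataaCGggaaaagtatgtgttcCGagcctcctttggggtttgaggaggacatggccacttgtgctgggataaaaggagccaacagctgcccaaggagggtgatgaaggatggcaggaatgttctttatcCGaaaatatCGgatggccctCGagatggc
Without VitC, a further H3K27me3 domain of 26123 bp (chr7:142553078-142579200, fold enrichment 3.11) began just past CS9 and ran over 20835 bp of the enhancer region and over the whole of H19. With VitC 8 separate peaks of 289 to 4779 bp overlapped the enhancer region, and the H19 start was in none.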

How the data were processed

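Femur RNA-seq was aligned by the authors to mm10 with STAR 2.6.0b-1 and counted with featureCounts 1.6.3. For the VitC femurs they deposited RPKM (23358 entries, 69 with a shared name), and for the Tet femurs normalized counts (signal: read counts divided by DESeq2 size factors). The peak lists, deposited by the authors after BWA 0.7.15.1 and MACS2 2.1.1.20160309.6, hold fold enrichment (a ratio) and −log10 q, with the replicates of a group pooled. The submitters' processing notes give these versions.

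RPKM values were divided by a median-ratio factor (0.757 to 1.10). Tested were the 12586 entries that reached an RPKM of 1, and the 16780 genes that reached a normalized count of 10, in 3 or more libraries, by limma 3.58.1 with trend in R 4.3.3, on log2(value + 0.5) or log2(value + 1), with all groups of an experiment in 1 fit and Benjamini-Hochberg adjustment over all tested genes. Whole reads were recovered in the Tet table (100% of values within 0.02 of a whole number) and used in edgeR 4.0.16 and DESeq2 1.42.0 as alternatives, without Tet1 cKO replicate 3, whose divisor is close to 1. The fits were tested on simulated data. The limma p-values rest on 1 spread per gene, shared by all groups of an experiment (3 libraries each) and moderated across genes. No depth is stated for RPKM.

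Members and gene lists were chosen with earlier results of these data known. Named genes were the 10 members, up to 4 called genes with the largest change in each list, the 3 genes most correlated with H19 and with Igf2 (1 of them is not reported here), and defining markers. Covered length was compared as log2 of the ratio after adding 1000 bp, and 2-fold counted as a difference. Python 3.11.15, pandas 2.3.3, numpy 2.4.6 and scipy 1.17.1 were used.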

Additional observations from a re-analysis of the deposited data

How the results depend on the processing

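In VitC+/- against WT, the count of genes past the threshold was 3, and 1 to 3 when single libraries were left out. It was 1 without WT replicate 2 and 1 without WT replicate 3 (Plagl1 in both), and 0 with the neutrophil covariate, added after seeing the data, under which Mest turned to -0.57 and Grb10 to -0.44 on the log2 scale. In VitC+ against WT the count was 0, and 0 to 1 without single libraries, with 1 without WT replicate 1. In VitC+/- against VitC+ and in the 3 Tet comparisons it was 0 to 0. Same-numbered libraries correlated at -0.49 to 0.46, so the numbers were not taken to pair the mice. With the replicate block the counts were 3 in VitC+/- against WT, 2 in VitC+ against WT (Plagl1 and Grb10) and 0 in the other comparisons, and 4465, 774 and 2169 genes in all passed in VitC+/- against WT, VitC+ against WT and VitC+/- against VitC+, compared with 3934, 0 and 1692. The cause was not tested. DESeq2 called 13, 15 and 11 genes of all in Tet1, Tet2 and Tet1/2 cKO, and edgeR 0, 1 and 0. Unscaled RPKM moved the median of all genes in VitC+/- against VitC+ from 0.02 to 0.13.

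Of the peak counts, 3 genes lower in Tet1/2 cKO became 5 with only peaks of −log10 q of at least 5, 5 with 200 bp added, 4 within 30 kb of the start and 4 by number of peaks, and 2 within 10 kb of the body, where H19 was at -0.78. For H3K27me3, 4 genes past 2-fold became 1 within 30 kb of the start, 2 within 10 kb of the body, 0 at the q minimum, 2 by number of peaks and 0 with clipped peaks. Within 10 kb Igf2r turned to -2.21 and Cdkn1c to 1.49, and by number of peaks Cdkn1c turned to 1.51. For H3K9me3, 3 became 1 at the q minimum, 7 by number of peaks and 7 with 200 bp added. For MC3T3-E1 5hmC, the 4 lower genes became 3 within 10 kb and 3 at the q minimum, where H19 was at -0.61, and the 4 higher became 3 by number of peaks, where Igf2r was at 0.12. Over the alternatives of single members, 913 fold changes counted as the same and 17 moved by more than the replicate spread. A further 9 lost the threshold, 3 gained it and 2 reversed. A called gene counted as the same if it kept direction and call. An uncalled gene did so if it stayed uncalled and shifted by less than the spread, so its sign could turn. Of the peak ratios 258 were the same, 39 crossed the 2-fold line and 3 reversed.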
